A study of Mus musculus with 9 samples.

Results

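The expression of the glucocorticoid receptor and of a set of genes that it controls directly was examined in mouse gastrocnemius, a large calf muscle of mixed but mainly fast fibers. The set held 9 genes chosen by name, with earlier results of these data known. All were present among the 55416 gene identifiers of the deposited table. They were the receptor gene Nr3c1, the target genes Fkbp5, Tsc22d3, Glul, Mt1, Mt2, Zbtb16 and Sgk1, and Hsd11b1. The last encodes the enzyme that regenerates active hormone inside cells. All 9 passed the filter on low counts and were tested. Muscle RNA came from 3 groups with 3 libraries each. SED were sedentary mice. AET were mice given aerobic exercise training on a motorized treadmill, in sessions of 60 minutes on 5 days of each week, and training lasted 8 weeks. AET+MET were mice trained on the same schedule that drank water with metformin, an oral glucose-lowering drug, at 2 mg/mL. No genetic change is named for any group, and strain, sex, age, feeding state and the hour of collection were not stated in the labels. The libraries are numbered within groups, and no label ties a number to a mouse. The p-values therefore describe the spread among these libraries, whether biological or technical. A group given metformin without training was not analysed here.

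The glucocorticoid receptor is a steroid hormone receptor that waits in the cytoplasm in a complex with the chaperone HSP90. When corticosterone or cortisol binds, it moves to the nucleus and binds DNA at glucocorticoid response elements, palindromes with an AGAACA arm on each strand. In muscle it is known for raising genes of protein breakdown, of glutamine export and of fuel switching, and for feeding back on itself through FKBP51, the product of Fkbp5, which lowers the affinity of the receptor for hormone. Circulating hormone follows a daily rhythm and rises with stress and fasting, so the RNA of its targets moves with all of these.

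Promoter windows of 7 of the 9 genes were taken from a RefSeq-derived table of build GRCm38.p6. They comprise 14 windows of 300 bases, each from 250 bases before to 50 bases after an annotated start. The genes with none in the table are Nr3c1 and Zbtb16. The full palindrome (AGAACA, a gap of 3 bases of any kind, then TGTTCT) occurs in 3 of the 32851 windows of the table (0.00913%), and 1 of those 3 belongs to Sgk1. That Sgk1 window, the fifth of its 6 annotated starts (chr10:21993640-21993939, plus strand), is printed because it holds this element, at 189 to 175 bases before the start. Capitals mark the palindrome and a further single arm, read as TGTTCT, upstream of it. Each arm of the palindrome also matches the single-arm motif. The single arm AGAACA, searched on both strands, occurs in 19.0% of windows. The windows of Mt1 (chr8:94178839-94179138, plus strand) and Mt2 (chr8:94172368-94172667, plus strand) are shown because these neighbours, whose starts lie 6471 bases apart, carry the motif of the zinc-sensing factor MTF-1. The looser core of the palindrome (GNACA, the same gap, then TGTNC) occurs in 0.475% of windows and stands in the Mt1 window at 94 to 82 bases before its start. Other capitals in these windows are metal response elements (TGCACNC or TGCGCNC on either strand), 3 in Mt1 and 4 in Mt2. At least 2 such elements occur in 7.11% of windows and at least 4 in 0.517%. These matches describe the letters of the windows and were not tested for binding.
Sgk1: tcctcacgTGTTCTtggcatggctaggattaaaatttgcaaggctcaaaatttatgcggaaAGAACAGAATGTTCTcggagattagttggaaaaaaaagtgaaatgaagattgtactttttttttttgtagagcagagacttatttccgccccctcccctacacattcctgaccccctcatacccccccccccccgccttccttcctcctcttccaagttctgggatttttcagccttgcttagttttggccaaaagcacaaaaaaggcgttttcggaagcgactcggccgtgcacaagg
Mt1: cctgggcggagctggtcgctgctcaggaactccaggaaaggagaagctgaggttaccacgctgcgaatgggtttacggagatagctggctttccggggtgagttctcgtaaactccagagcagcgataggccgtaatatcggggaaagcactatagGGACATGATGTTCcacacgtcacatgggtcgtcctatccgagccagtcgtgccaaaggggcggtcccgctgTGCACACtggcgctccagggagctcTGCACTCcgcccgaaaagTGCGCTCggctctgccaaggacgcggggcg
Mt2: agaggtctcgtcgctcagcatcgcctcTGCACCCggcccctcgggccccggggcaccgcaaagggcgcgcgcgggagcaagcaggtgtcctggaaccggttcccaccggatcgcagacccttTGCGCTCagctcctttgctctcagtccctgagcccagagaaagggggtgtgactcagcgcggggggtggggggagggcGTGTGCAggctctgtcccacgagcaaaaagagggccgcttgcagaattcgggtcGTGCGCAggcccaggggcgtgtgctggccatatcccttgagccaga

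Libraries held 15434424 to 25355877 expected counts, the fewest in AET+MET replicate 1. Levels below are in CPM, that is counts divided by the TMM-adjusted size of the library. Differences were tested on 13944 genes with edgeR's quasi-likelihood test, and "called" means a Benjamini-Hochberg adjusted p below 0.05. The fast-fiber markers summed to 126334 to 147211 CPM across the 9 libraries, so the defining markers of the labelled tissue were present. T and B cell markers summed to at most 0.527 CPM.

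Per kilobase of merged exons, Glul was the most abundant of the 9 RNAs in every group and Hsd11b1 the least. In SED the order of mean levels was Glul at 288 ± 29.1 CPM per kilobase, Tsc22d3 at 81.6 ± 12.8, Sgk1 at 38.0 ± 14.3, Zbtb16 at 28.6 ± 2.40, Mt1 at 24.3 ± 12.1, Nr3c1 at 16.4 ± 1.08, Mt2 at 14.2 ± 9.48, Fkbp5 at 13.3 ± 2.41 and Hsd11b1 at 1.73 ± 0.164 (SD, n = 3). From Sgk1 down to Fkbp5 each neighbour in this order overlapped the next across libraries, so the order of neighbours is not resolved. Every Sgk1 and Zbtb16 library in SED still lay above every Nr3c1, Mt2 and Fkbp5 library. In AET the means ran from 51.5 ± 7.496 for Glul to 1.42 ± 0.220 for Hsd11b1, and Nr3c1 at 12.8 ± 0.456 stood above Zbtb16 at 11.4 ± 2.05, with overlapping libraries. Mt2 and Fkbp5 also overlapped there, at 4.05 ± 0.599 and 3.40 ± 0.620 CPM per kilobase. In AET+MET the order of SED recurred except that Nr3c1 stood above Mt1.

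Training without metformin is the comparison in which most of the set moved. In AET against SED, 6 of the 9 genes fell and none rose by edgeR's test: Glul, Fkbp5, Mt1, Tsc22d3, Zbtb16 and the receptor gene Nr3c1. Over all genes tested, 12.3% were called, 6.45% lower and 5.82% higher. All 9 had a lower estimate, with a median log2 change of -1.34, beside 0.01 over all genes. In 8 of the 9, every AET library lay below every SED library, which held for 16.3% of all genes. The exception was Hsd11b1. Because the set was chosen with earlier results of these data known, its counts beside those of all genes are not independent evidence.

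Nr3c1, the receptor itself, lies on chromosome 18 at 39410545 to 39519421 (GRCm38, minus strand; this and the positions below are whole genes in GENCODE M21). Its level was 135, 125 and 118 CPM in SED replicates 1 to 3 and 102, 95.5 and 97.99 CPM in AET. The groups did not overlap, and the drop was the smallest among the 6 called genes. The log2 change was -0.36 ± 0.07 (SE, edgeR adjusted p = 0.0079), a level 1.28-fold lower. Hsd11b1, encoding 11 beta-hydroxysteroid dehydrogenase type 1 (chromosome 1, 193221634 to 193264075, minus strand), stood at 6.57, 7.57 and 7.91 CPM in SED and 5.49, 7.11 and 5.48 CPM in AET. These libraries overlapped, and the log2 change of -0.28 was not called (95% interval -0.58 to 0.02). Lamb3, whose whole gene overlaps that of Hsd11b1 on the opposite strand, averaged 1.47 CPM. The strand setting is not given, so reads from any exon stretch that both genes share may not have been told apart.

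Glul, encoding glutamine synthetase, which makes the glutamine that muscle releases, had the largest drop of the set. It lies on chromosome 1 at 153899944 to 153909723 (plus strand). SED libraries held 851, 1040.0 and 982 CPM, and AET libraries 159, 199.7 and 155 CPM. The groups were widely separated, and the fitted level was 5.60-fold lower in AET. The log2 change was -2.49 ± 0.36 (edgeR adjusted p = 0.0079). Tsc22d3, encoding GILZ, an anti-inflammatory leucine zipper protein (chromosome X, 140539528 to 140600659, minus strand), stood at 319, 418 and 326 CPM in SED and at 128, 168 and 123 CPM in AET. It had the smallest adjusted p of the set, 0.00039 by edgeR, with a log2 change of -1.34 ± 0.14. Zbtb16, encoding the zinc finger repressor PLZF (chromosome 9, 48654297 to 48836222, minus strand), stood at 163, 152 and 138 CPM in SED. AET libraries held 72.5, 55.9 and 52.0 CPM. The groups were far apart, with a log2 change of -1.33 ± 0.22 (edgeR adjusted p = 0.0085).

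Fkbp5, the feedback gene of the receptor (chromosome 17, 28399094 to 28517527, minus strand), stood at 106, 151 and 122 CPM in SED and at 28.8, 39.0 and 28.8 CPM in AET. No library of either group came near the other, and the fitted level was 3.92-fold lower in AET (log2 change -1.97 ± 0.47, edgeR adjusted p = 0.0431). The call was lost without any 1 of the SED or AET libraries (adjusted p up to 0.139), while the log2 change stayed between -2.13 and -1.82. Without AET+MET replicate 2, a library outside this comparison that shares the estimate of spread, the adjusted p was 0.000261.

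The metallothioneins, small proteins that bind zinc and copper, had wide spreads in SED. Mt1 (chromosome 8, 94179082 to 94180327, plus strand) stood at 16.6, 46.4 and 27.7 CPM in SED and within 8.73 to 9.45 CPM in AET. Its log2 change was -1.73 ± 0.41 (edgeR adjusted p = 0.0397). The call was lost in 7 of 9 fits without 1 library (adjusted p up to 0.13), namely without SED replicate 2 or 3, any AET library, or AET+MET replicate 1 or 2. Mt2 (chromosome 8, 94172664 to 94173568, plus strand) stood at 4.44, 14.8 and 5.91 CPM in SED and at 2.39, 2.73 and 2.03 CPM in AET. Its estimate of -1.81 ± 0.52 was as large as that of Mt1 but was not called (edgeR adjusted p = 0.0642). Mt2 was called lower in 5 of 19 alternative fits, among them DESeq2 and the fit without SED replicate 1. SED replicate 2 was the highest library for both genes. Without it the log2 changes were -1.28 for Mt1 and -1.12 for Mt2. The ratio of Mt1 to Mt2 CPM lay between 2.60 and 4.69 in the 9 libraries. SED overlapped both trained groups in this ratio, and the lowest AET library (3.46) lay just above the highest AET+MET library (3.44).

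Sgk1, encoding a kinase that acts on ion channels and on NEDD4L (chromosome 10, 21882184 to 21999903, plus strand), carries the full palindrome printed above. Its level was 133, 265 and 160 CPM in SED and 119, 117 and 105 CPM in AET. Although every AET library lay below every SED library, the gap to SED replicate 1 was small and SED replicate 2 stood far above the rest. The log2 change of -0.71 was not called (95% interval -1.51 to 0.08), and it was -0.37 without SED replicate 2. The counts are summed over all starts of a gene, so they do not show which Sgk1 start was used.

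**Figure D1:**
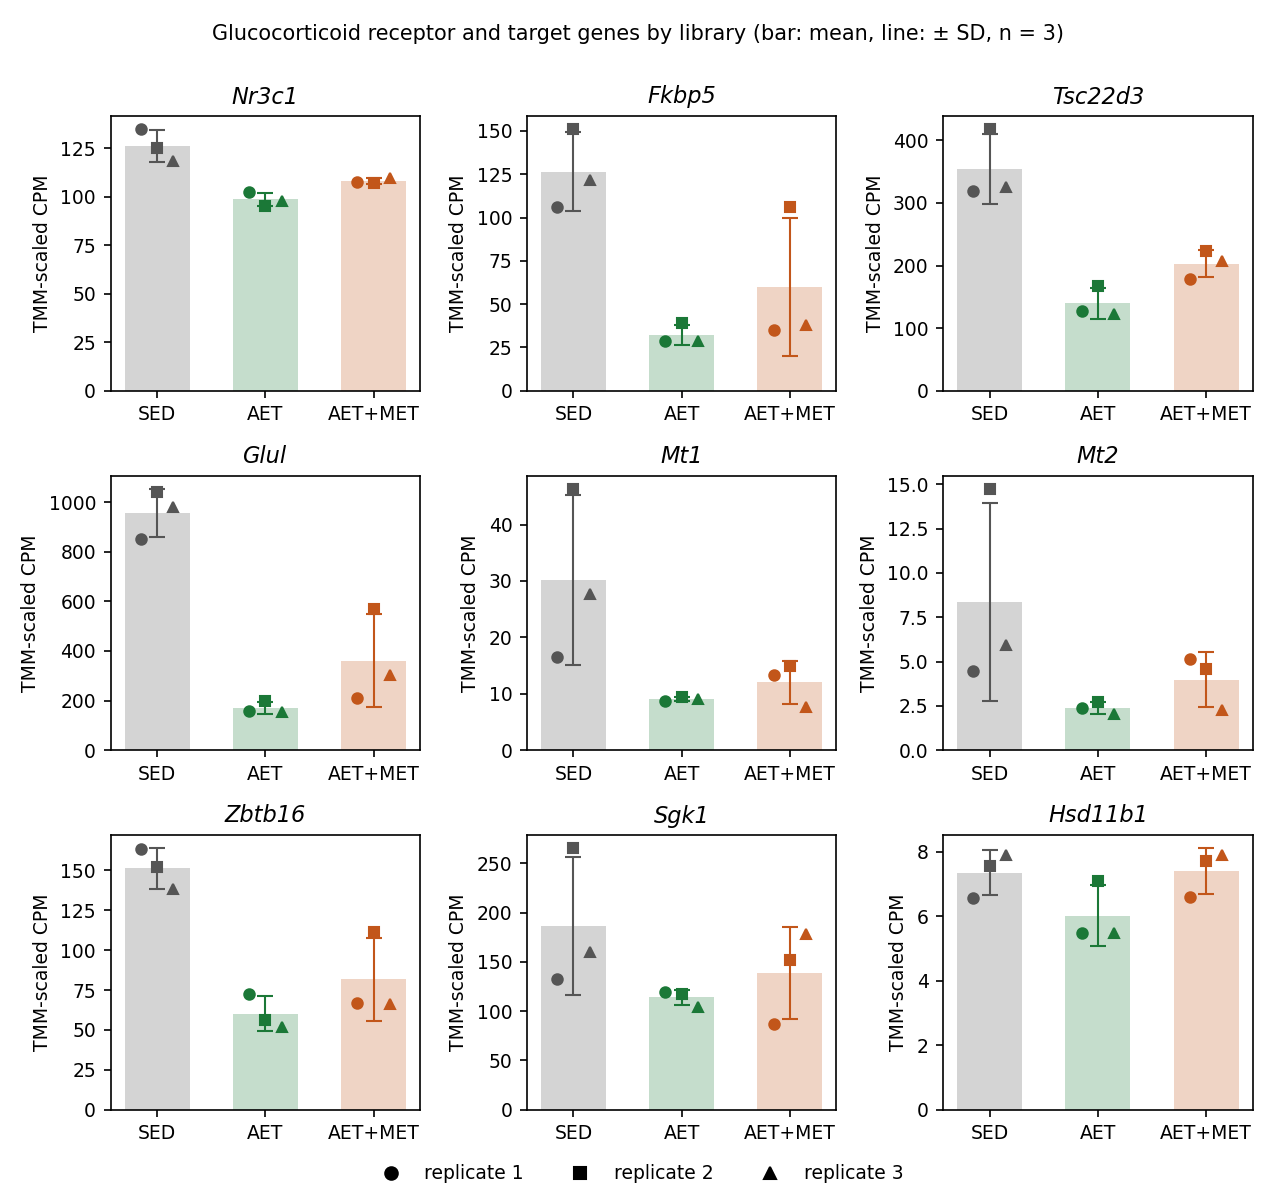
Points give TMM-scaled CPM of each library, with shapes for replicate numbers, for SED, AET and AET+MET. Bars give the mean and lines ± SD (n = 3), on a separate linear axis from 0 for each gene. Glul lies at 851 to 1040.0 CPM in SED and 155 to 199.7 in AET, and AET+MET replicate 2 is the highest AET+MET library for Fkbp5, Glul and Zbtb16.

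With metformin added to training, 8 of the 9 genes had lower estimates than in SED, and the AET+MET libraries differed widely among themselves for Glul and Fkbp5. In AET+MET against SED only Tsc22d3 was called lower of the 9 and none was called higher by edgeR, beside 4.59% of all genes called, 2.42% lower and 2.17% higher. At an unadjusted p under 0.05, 5 of the 9 were lower, beside 20.6% of all genes in either direction, and DESeq2 called 4 lower, beside 3.95% of all genes. The median log2 change was -0.89, beside 0.00 over all genes. Every AET+MET library lay below every SED library in 6 of the 9, against 13.4% of all genes. Among the 6, Fkbp5 was separated only narrowly, with AET+MET replicate 2 at 105.9 and SED replicate 1 at 106.2 CPM.

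Tsc22d3 stood at 179, 222 and 208 CPM in AET+MET, all below the lowest SED library. Its log2 change was -0.80 ± 0.14 (edgeR adjusted p = 0.0124), a call lost without AET+MET replicate 1 or 3 (adjusted p up to 0.0777). Nr3c1 stood at 108, 107 and 109.8 CPM, between the SED and AET libraries without overlapping either. Its log2 change of -0.22 was not called (95% interval -0.38 to -0.07, edgeR adjusted p = 0.1). Mt1 stood at 13.3, 14.96 and 7.72 CPM, below all SED libraries, with a log2 change of -1.34 ± 0.40 (edgeR adjusted p = 0.127). Mt2, at 5.12, 4.58 and 2.24 CPM, overlapped SED. Sgk1 ranged from 87.3 to 178 CPM across AET+MET libraries and overlapped SED, with a log2 change of -0.42 (95% interval -1.21 to 0.37). That value was -0.08 without SED replicate 2, -0.18 without AET+MET replicate 1 and -0.64 without AET+MET replicate 3. Hsd11b1 matched SED closely, at 6.60, 7.73 and 7.90 CPM, with a log2 change of 0.02 (95% interval -0.28 to 0.31).

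For Glul, Fkbp5 and Zbtb16, AET+MET replicate 2 stood apart from the other AET+MET libraries. Glul was at 211, 570.5 and 302 CPM in AET+MET replicates 1 to 3. Fkbp5 was at 35.3, 106 and 38.2 CPM, so replicate 2 reached the level of the lowest SED library, also at 106 CPM. Zbtb16 was at 67.1, 112 and 66.4 CPM. None of these genes was called in AET+MET against SED, with log2 changes of -1.41 ± 0.35 for Glul, -1.08 ± 0.45 for Fkbp5 and -0.89 ± 0.22 for Zbtb16 (edgeR adjusted p = 0.0776, 0.248 and 0.0628). Without that library all 3 were called lower, along with Tsc22d3, at log2 changes of -1.91 for Glul, -1.80 for Fkbp5 and -1.20 for Zbtb16 (edgeR adjusted p = 0.000685, 0.00175 and 0.001). The count of called members was 2 without SED replicate 1, where Mt1 was added, and 0 without AET+MET replicate 1 or 3.

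Whether metformin changed the set in trained muscle was tested by AET+MET against AET, which is also the test of the difference between both training responses, since those share the SED libraries. All 9 genes had a higher estimate in AET+MET, and edgeR called 0 of the 9, beside 3.43% of all genes called, 1.66% higher and 1.77% lower. At an unadjusted p under 0.05 there were 2, Glul and Tsc22d3, beside 21.4% of all genes, so this count is near the background. DESeq2 called the same 2, beside 6.28% of all genes. The group means fell in the order SED, AET+MET, AET for 8 of the 9, against 19.8% of all genes. Hsd11b1 was the exception. All 9 already had a lower estimate in AET than in SED, beside 48.6% of all genes. The order is therefore partly set by that comparison and is no separate result on metformin.

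Tsc22d3 came nearest to a call, with 179 to 222 CPM in AET+MET above 123 to 168 CPM in AET and a log2 change of 0.54 ± 0.14 (95% interval 0.23 to 0.85, edgeR adjusted p = 0.0623). It was called without SED replicate 2 and without AET replicate 2 (adjusted p = 0.0463 and 0.0255). Glul had the largest estimate, 1.08 ± 0.35 (95% interval 0.25 to 1.91, edgeR adjusted p = 0.139), and its libraries did not overlap between the groups. Without AET+MET replicate 2 the Glul value was 0.57. Nr3c1 was also higher in every AET+MET library than in any AET library, by 0.13 on the log2 scale (95% interval -0.02 to 0.29). These are the 3 of 9 genes with that separation, and 14.7% of all genes had it. Fkbp5 differed by 0.89 (95% interval -0.22 to 2.00) with all libraries and by 0.18 without AET+MET replicate 2, and Zbtb16 by 0.44 and 0.14. Mt1, Mt2, Sgk1 and Hsd11b1 had intervals of -0.61 to 1.39, -0.55 to 2.00, -0.50 to 1.08 and -0.00 to 0.60. Each of these intervals holds 0.

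**Figure D2:**
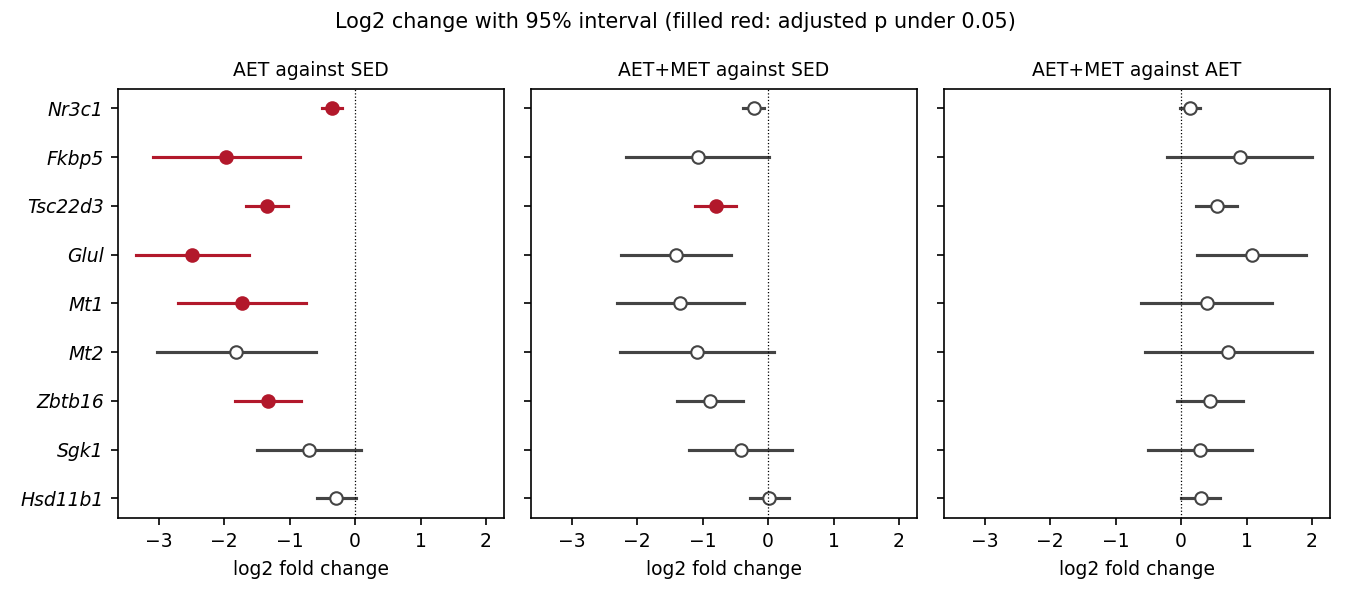
Points give the log2 change of each gene and lines its 95% interval, from the edgeR fit of all 9 libraries, in 3 panels on 1 axis. Filled red points were called at an adjusted p under 0.05, which applies to 6 genes in AET against SED, to Tsc22d3 in AET+MET against SED and to none in AET+MET against AET.

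The libraries within a group did not move as a block across the set. SED replicate 2 was the highest of the 9 libraries for Fkbp5, Tsc22d3, Glul, Mt1, Mt2 and Sgk1, but not for Nr3c1, Zbtb16 or Hsd11b1. The sum over the 9 genes was 1735, 2221 and 1888 CPM in SED, 626, 695 and 578 CPM in AET, and 712, 1296 and 919.95 CPM in AET+MET, and Glul made up much of it. AET+MET replicate 3, low for Mt1 at 7.72 CPM, was the highest AET+MET library for Sgk1 at 178 CPM. Likeness of 2 genes was measured as the root mean square difference of log2 CPM over the 9 libraries, after each gene was centred on its own mean. The most alike among the 7 target genes were Mt1 and Mt2 at 0.24, Fkbp5 and Glul at 0.26, and Tsc22d3 and Zbtb16 at 0.27 log2 units. Outside the set, Slc43a1, encoding an amino acid transporter, was nearest to Glul (0.23), and its mean level was 52.9 CPM in SED, 11.6 in AET and 18.4 in AET+MET. Lrrc30 was nearest to Fkbp5 (0.27), Tcp11l2 to Tsc22d3 (0.17), Ccn1 to Zbtb16 (0.16) and Errfi1, itself a gene that glucocorticoids induce, to Sgk1 (0.15). Hmox1, encoding heme oxygenase 1, was nearest to Mt1 (0.23), and Apbb3 to Mt2 (0.30). These genes were picked from all tested genes for their closeness, over libraries that share their group differences.

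**Figure D3:**
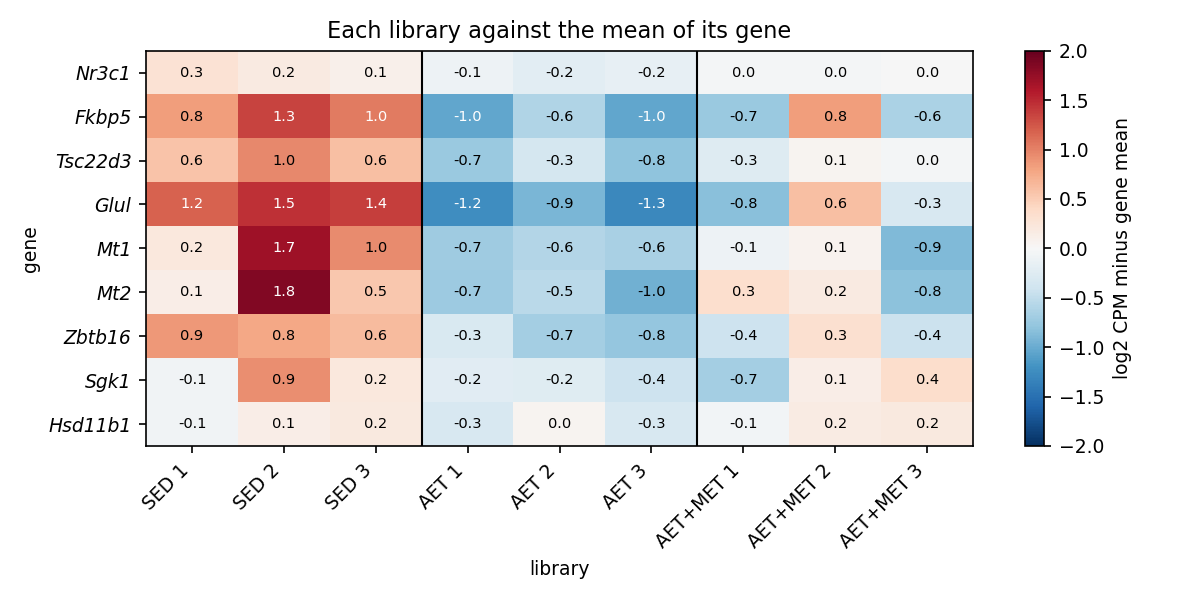
Each cell gives log2 CPM of a library minus the mean of its gene over the 9 libraries, with genes in rows and libraries in columns, on a color scale from -2 to 2. SED cells are mostly positive and AET cells mostly negative, while AET+MET replicate 2 is positive for Fkbp5, Glul and Zbtb16 and AET+MET replicates 1 and 3 are negative for them.

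Other genes known to be induced by glucocorticoids were examined as a list of 26, of which 25 were tested. The list shares genes with FOXO targets and was drawn up with earlier results of these data known, so it is not independent evidence. In AET against SED 15 fell and 1 rose, with a median log2 change of -1.31, beside 0.01 over all genes. Of all genes tested, 6.45% were called lower and 5.82% higher. The genes with the smallest p were Eif4ebp1, a brake on translation (-1.38 ± 0.09, edgeR adjusted p = 1.29e-05), Klf9 (-1.09 ± 0.09), Cebpb (-1.55 ± 0.15) and Foxo3 (-0.94 ± 0.10). Klf15, a transcription factor that works with the receptor in muscle, fell from 50.3 ± 8.93 to 20.3 ± 0.462 CPM, and the clock gene Per1 from 29.1 ± 7.93 to 12.6 ± 1.04 CPM. Dusp1, encoding a phosphatase that restrains MAP kinases, went the other way at 0.46 ± 0.12, a call lost without SED replicate 1 or 3 or any AET library (adjusted p up to 0.083). In AET+MET against SED edgeR called 11 of the 25 lower and DESeq2 15, neither called any higher, and the median was -0.76. Over all genes edgeR called 2.42% lower and DESeq2 3.95%, with a median of 0.00. In AET+MET against AET edgeR called 3 of the 25 higher, beside 1.66% of all genes, and DESeq2 5. Neither called any lower. Over all genes DESeq2 called 6.28% in either direction. The 3 called by edgeR were Eif4ebp1 (0.87 ± 0.09), Per1 (0.95 ± 0.17) and Cebpb (0.63 ± 0.15). The Per1 call was lost without any 1 of the AET or AET+MET libraries, and the Cebpb call without SED replicate 3, AET replicate 1 or 3 or any AET+MET library (adjusted p up to 0.109 and 0.169).

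**Figure D4:**
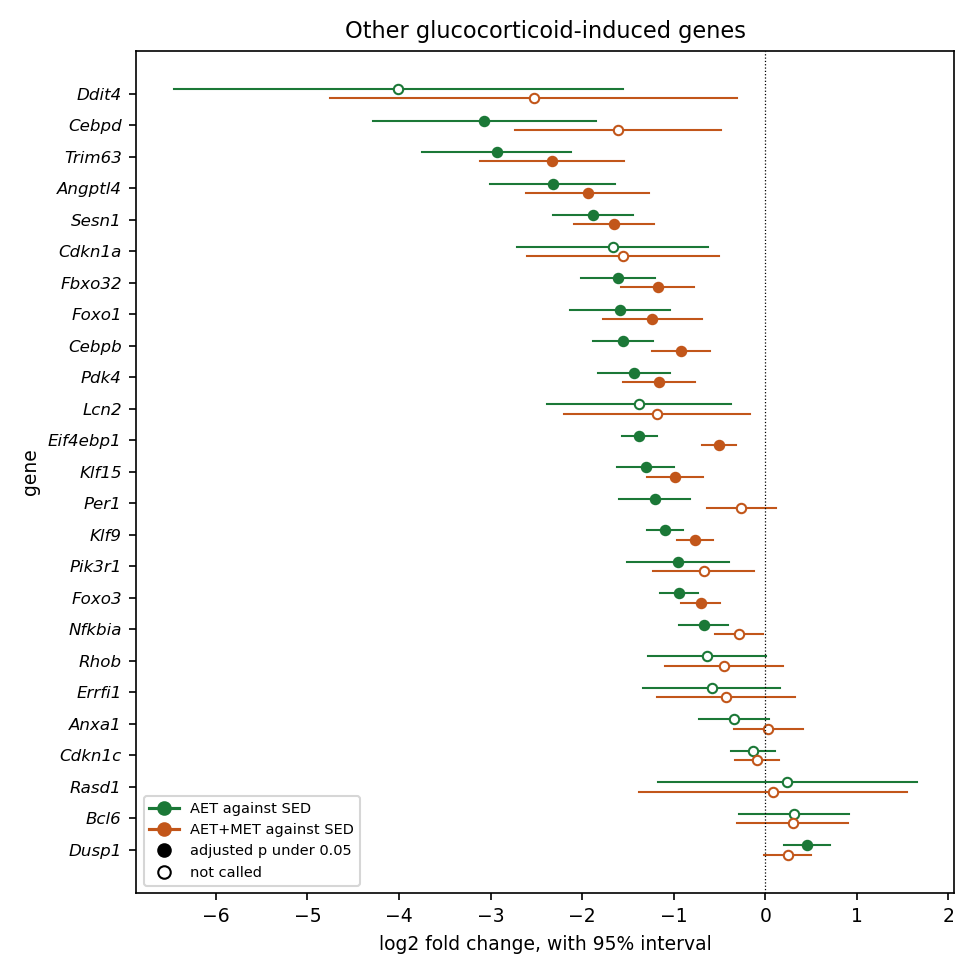
Points give the log2 change of 25 other glucocorticoid-induced genes in AET against SED (green) and AET+MET against SED (orange), with 95% intervals. Filled points were called, 15 lower and 1 higher in AET and 11 lower in AET+MET. The comparisons share the SED libraries, so their likeness is no independent result.

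The machinery around the receptor is to be read beside the same 12.3% of all genes called in AET against SED. In AET+MET against SED that share was 4.59%. Of 12 chaperone genes of the receptor complex 1 rose and none fell in AET against SED: Hsp90aa1, encoding an HSP90 form, at 0.40 ± 0.12 (edgeR adjusted p = 0.0498), a call lost in 13 of 19 alternative fits. Of 14 coregulators, Hdac2 rose (0.34 ± 0.08) and the corepressor gene Nrip1 fell (-0.58 ± 0.13) in AET, and Hdac2 (0.33 ± 0.08) and Ncoa1 (0.42 ± 0.10) rose in AET+MET against SED. Each of these 4 calls was lost in some fits without 1 library. Nr3c2, encoding the related mineralocorticoid receptor, which also binds corticosterone, went opposite to Nr3c1. It rose from 10.8 ± 0.840 CPM in SED to 16.7 ± 1.12 in AET and 15.2 ± 1.40 in AET+MET (log2 changes 0.63 ± 0.10 and 0.49 ± 0.10, edgeR adjusted p = 0.00237 and 0.0192). The second call was lost without SED replicate 2 or AET+MET replicate 1 or 3. Of 14 genes that glucocorticoids repress, among them cytokine and adhesion genes, 10 were too low to test. Nos2 rose in both training comparisons from a low level (0.546 ± 0.111 CPM in SED and 1.45 ± 0.351 CPM in AET), and its call in AET+MET against SED was lost in 13 of 18 alternative fits.

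Relatives and partners of the targets formed 5 lists, to be read beside the share of all genes called in the same comparison. These shares were 12.3% in AET against SED, 4.59% in AET+MET against SED and 3.43% in AET+MET against AET. Of 11 tested FKBP relatives of Fkbp5 only Fkbpl fell (-0.85 ± 0.16). Of 11 BTB zinc finger genes and cullin partners of Zbtb16 none was called by edgeR or DESeq2 in any comparison. At an unadjusted p under 0.05 by edgeR there were 1, 3 and 2 of them in AET against SED, AET+MET against SED and AET+MET against AET. The shares of all genes at that threshold were 28.5%, 20.6% and 21.4%. Of 14 tested genes of glutamine handling, Gpt2, encoding an alanine aminotransferase, fell from 372 ± 99.5 to 173 ± 12.6 CPM. Among 13 relatives and partners of Tsc22d3 and Sgk1, Ndrg1, whose product SGK1 phosphorylates, rose (0.74 ± 0.15), and Pdpk1, encoding the kinase that activates SGK1, fell (-0.25 ± 0.06), as did Tsc22d1 (-0.25 ± 0.07). Of 11 tested metal-responsive and zinc transport genes, the zinc importer gene Slc39a14 fell in AET (-0.90 ± 0.25, edgeR adjusted p = 0.0499), a call lost in 11 of 19 alternative fits. The exporter gene Slc30a4 was higher in AET+MET than in either other group (0.47 ± 0.08 against SED and 0.55 ± 0.08 against AET). Nedd4l and Nedd4, whose products are ubiquitin ligases, were higher in AET+MET than in AET, by 0.50 ± 0.11 and 0.36 ± 0.09, calls lost in 7 and 13 of 19 alternative fits. The calls of Pdpk1 and Tsc22d1 were lost in 6 and 10 of them.

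Some clock genes and cell type markers were also called in these comparisons. Over all genes, 5.82% were called higher and 6.45% lower in AET against SED. The shares were 2.17% and 2.42% in AET+MET against SED, and 1.66% and 1.77% in AET+MET against AET. Nr1d1 rose by 1.02 ± 0.10 and Dbp by 2.11 ± 0.40 in AET against SED, and Arntl fell by 1.20 ± 0.24 on the log2 scale (edgeR adjusted p = 0.000153, 0.0203 and 0.02). These clock genes were chosen after their values were seen. In AET against SED the calls of Dbp and Arntl were lost in 6 of 19 alternative fits each. The log2 changes in AET+MET against SED were 0.52 ± 0.10 for Nr1d1, 2.16 ± 0.40 for Dbp and -1.25 ± 0.25 for Arntl. All were called (edgeR adjusted p = 0.0153, 0.0368 and 0.0344), and these calls were lost in 3, 10 and 11 of 19 alternative fits. Summed tenocyte markers ranged from 311 to 508 CPM in SED, 134 to 305 in AET and 90.1 to 212 in AET+MET, and none of 6 was called. Fibroblast markers ranged from 872 to 1158 CPM in SED, 715 to 781 in AET and 639 to 688 in AET+MET, with 1 of 7 called lower in each training group. Schwann cell markers ranged from 56.4 to 62.8 CPM in SED and 101 to 164 in AET, with 3 of 7 called higher. In AET+MET they ranged from 42.6 to 91.0, with 1 of 7 called lower than in AET. Of 8 fast-fiber markers 1 was called lower in AET against SED. Slow-fiber markers ranged from 748 to 916 CPM in SED, 297 to 1128 in AET and 69.3 to 644 in AET+MET, and none of 7 was called. Adipocyte markers ranged from 135 to 167 CPM in SED, 169 to 201 in AET and 130.4 to 245 in AET+MET. None of the adipocyte and macrophage markers was called. Smooth muscle and pericyte markers ranged from 506 to 596 CPM in SED, 601 to 707 in AET and 499.7 to 598 in AET+MET, with 2 of 7 called higher in AET against SED. Endothelial markers ranged from 210.2 to 241 CPM in SED, 225 to 258 in AET and 179.5 to 215 in AET+MET. Of these 7, 1 was called higher and 1 lower in AET against SED, and 1 lower in each of the other comparisons. For every marker list whose ranges are given in this paragraph, AET+MET replicate 2 was the highest AET+MET library. That did not hold for all lists. Macrophage and fast-fiber markers were highest in AET+MET replicate 3, at 136.5 and 144623 CPM. The part of clock phase or of these cells in the levels of the 9 genes was not tested, and in bulk muscle fewer cells of a type and less RNA per cell cannot be told apart.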

How the data were processed

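RNA sequencing of gastrocnemius gave 9 libraries. The deposited table holds expected counts per Ensembl gene, which the authors estimated with RSEM per the file name. STAR 2.5.3a, RSEM 1.3.0, edgeR 3.34.0 and GRCm38 are named without roles per the submitters' processing notes. Neither those notes nor the labels state an annotation release, filters or a strand setting. RNA was total RNA, made into libraries with a SMARTER kit per the labels' protocols. Groups came from sample titles.

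Counts were rounded, and 52135 identifiers got a GENCODE M21 symbol. edgeR 4.0.16 (R 4.3.3) fitted 3 group means to all 9 libraries with TMM scaling, filterByExpr and robust quasi-likelihood, leaving 6 residual degrees of freedom, and p-values were adjusted over 13944 genes. The SE of a log2 change is its size divided by the square root of F. Log2 CPM used a prior count of 2. DESeq2 1.42.0, other scalings and filters and single libraries left out served as alternatives. The procedure was tested on simulated data.

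Named were the 9 genes, up to 4 called genes of smallest p per list and comparison, further genes of the glucocorticoid-induced list, and the nearest gene in pattern among those of at least 5 CPM. Members and lists were chosen with earlier results of these data known. Same-numbered libraries were not paired. The result for 1 listed gene is not reported here.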

Additional observations from a re-analysis of the deposited data

Results flagged for a closer look

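Each gene here was called in AET+MET against AET, the direct test of whether the change from SED differed between both trained groups. No member of the receptor set was among them. The difference on the log2 scale (edgeR) was 0.95 for Per1, 0.87 for Eif4ebp1, 0.63 for Cebpb, 0.55 for Slc30a4, 0.50 for Nedd4l, 0.36 for Nedd4 and -0.50 for Nr1d1, with adjusted p of 0.0247, 0.00172, 0.0431, 0.00675, 0.0365, 0.047 and 0.0249. The calls of Eif4ebp1 and Slc30a4 were kept in all 19 alternative fits, and that of Nr1d1 was lost in 5.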

How the results depend on the processing

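In AET against SED the calls of Nr3c1, Tsc22d3, Glul and Zbtb16 held in all 19 alternative fits, and 4 to 7 members were called. With 1 library left out, the count was 4 to 6 members there, 0 to 4 in AET+MET against SED and 0 to 1 in AET+MET against AET, and the count over all genes was 934 to 1509, 141 to 655 and 23 to 461, from 1712, 640 and 478. In AET+MET against SED, DESeq2 and the fit without robust shrinkage each called 4 members. In AET+MET against AET, DESeq2 called 2 members and 876 genes, library sizes alone 767 genes (611 of them higher) and no filter 731. Library sizes alone moved the median of all genes by 0.1 in AET+MET against SED, where 684 of 860 calls were rises, and by 0.089 in AET+MET against AET. In AET against SED, upper-quartile factors gave 1691 calls with 980 higher, from 812 of 1712. The Hsd11b1 value in AET+MET against SED changed sign, to -0.061, -0.030 and -0.040, without SED replicate 1, AET+MET replicate 2 and AET+MET replicate 3. Causes were not tested.

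Same-numbered libraries correlated at -0.051 to 0.184 in their deviations from group means, and 2 of 9 pairs exceeded 0.1. Of the 9 libraries, 4 were closest to their own number. Pairing by number was thus not shown, and with 3 libraries per group this check cannot show that it is absent. With the replicate block 7, 2 and 1 members were called in the 3 comparisons, and 1530, 535 and 358 genes. Mt1 and Mt2 counts were as low as 172 and 50 in a library, and Hsd11b1 counts as low as 107. In AET against SED the SE was 0.41 for Mt1, 0.52 for Mt2 and 0.14 for Hsd11b1. The part of low counts in these SE values was not tested.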
